A study of Arabidopsis thaliana with 12 samples.

Results

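The nuclear photosynthesis genes described here are 41 of the 37336 genes in the count tables of Arabidopsis root explants. They were picked by gene identifier and comprise 4 *LHCA* genes for the light harvesting antenna of photosystem I, 14 *LHCB* genes for the antenna of photosystem II, 4 *RBCS* genes for the small subunit of Rubisco, 11 *PSA* genes for subunits of photosystem I and 8 *PSB* genes for subunits of photosystem II. Their messages added up to between 5616 and 24145 reads per library. No member passed the test for dexamethasone against mock after 1 or 6 h of treatment. After 24 h, *RBCS1A* and the photosystem II genes *PSBP1*, *PSBR* and *PSBX* were higher and the antenna gene *LHCB1.3* and the photosystem I gene *PSAF* were lower with dexamethasone than with mock. Of 32 members tested at 24 h, these were 4 higher (6.77% of all genes) and 2 lower (8.76% of all genes). DESeq2 called 2 of them, and a fit of all 12 libraries called none of them. In mock treated explants, 13 of 34 members tested were higher after 6 h than after 1 h (5.34% of all genes). None was lower (9.26% of all genes). How many members passed in this comparison depended on the libraries in the fit.

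The RNA came from roots of plants of the Landsberg *erecta* accession that carried 35S:LFY-GR, a fusion of the floral regulator LEAFY (LFY) and the steroid responsive part of the glucocorticoid receptor, which stays out of the nucleus until the steroid dexamethasone is given. Roots cut from 3-week-old seedlings were kept for 5 days on callus inducing medium (CIM), which makes root tissue form callus, and dexamethasone or mock solution was present for the last 1, 6 or 24 h. The 6 groups were thus dexamethasone and mock at 1 h, dexamethasone and mock at 6 h, and dexamethasone and mock at 24 h, each with 2 biological replicates, A and B, for 12 libraries in all. Every group carried the transgene, whose 35S promoter is active in most plant cells, and no dexamethasone treated plants without it were among the libraries, so an effect of the steroid itself and an effect of LFY-GR cannot be told apart. By the methods, tissue of all groups was collected at one hour of the day, ZT 6, counted from lights on. The handling batch of each group is not given in the sources used here, so that length of treatment and batch cannot be told apart.

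Photosynthesis begins when antenna proteins that bind chlorophyll pass light energy to photosystems I and II in the thylakoid membrane. Photosystem II takes electrons from water, photosystem I passes them to ferredoxin, and the resulting energy and reducing power are used by Rubisco and the rest of the Calvin cycle to fix carbon dioxide. Many of the proteins are encoded in the nucleus and imported into the chloroplast, and their genes are known for strong expression in green tissue, for induction by light and for low expression in roots.

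Between 18511462 and 66789371 reads per library were assigned to genes, with a median of 50728668, and the 4 libraries at 24 h were the shallowest. Reads that mapped to several places were not counted and made up between 6.90% and 22.2% of the reads per library, and the strand was not used, so that reads of overlapping genes can be misassigned. Of 12 marker genes of roots and callus, 7 were at 10 or more CPM (counts per 1000000 reads of the library after TMM scaling, a correction for differences in RNA composition) in all libraries (*SCR*, *SHR*, *PLT1*, *PLT2*, *WOX5*, *LBD16* and *LBD29*), and 2 were under 0.5 CPM in all. Of 12 marker genes of leaf epidermis, guard cells and other shoot tissue, 10 were under 0.5 CPM in all libraries and 3 of these, *FAMA*, *TGG1* and *TGG2*, were at 0. The exceptions were *CER6*, for wax synthesis, and *MYB60*, a guard cell regulator.

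Levels are given as RPKM, which is counted reads per kilobase of exon and per 1000000 reads of the library. Of the 41 members, 9 had a mean of at least 10 RPKM over the 12 libraries, 21 were between 1 and 10 RPKM and 11 were under 1 RPKM. The highest mean levels were those of *PSAE2* at 24.0 RPKM, *PSBO1* at 22.1 RPKM, *PSBX* at 20.9 RPKM, *LHCA4* at 19.1 RPKM and *LHCB4.1* at 18.6 RPKM. *PSAE2* encodes a subunit on the ferredoxin side of photosystem I, *PSBO1* the manganese stabilizing protein of the oxygen evolving complex, *PSBX* a small membrane subunit of photosystem II and *LHCB4.1* the minor antenna protein CP29. *PSAF*, for the plastocyanin docking subunit of photosystem I, followed with a mean of 16.7 RPKM, *PSBR* with 13.6 RPKM, *RBCS1A* with 11.6 RPKM and *PSBP1* with 11.2 RPKM.

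Genes for the same protein were unequal in level. *RBCS1A* accounted for 99.5% of the reads on *RBCS* genes, and *RBCS1B*, *RBCS2B* and *RBCS3B* had 0 to 4 reads in each library. The level of *PSAE2* was 13.6 to 35.0 times that of *PSAE1*, the level of *PSBO1* was 10.8 to 34.2 times that of *PSBO2*, and the level of *LHCB4.1* was 8.66 to 15.3 times that of *LHCB4.3*. The other copies of CP29 and of PSAD differed less, since *LHCB4.1* was at 4.83 to 6.99 times the level of *LHCB4.2* and *PSAD1* at 1.89 to 4.79 times that of *PSAD2*. In the major antenna of photosystem II, whose trimers are built from LHCB1, LHCB2 and LHCB3 proteins, *LHCB1.3* was at 2.93 to 6.30 times the level of *LHCB1.2*. In each of these pairs the order of both genes was the same in all 12 libraries.

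The lowest members could not be tested. *LHCB1.4* and *LHCB1.5* had no read in any library. For *LHCB1.4*, a count of 0 at the depths used here allows a level of up to 0.0430 to 0.157 CPM of reads that map to it alone (3 reads per library, for counting error only). *LHCB1.1*, *LHCB2.3*, *RBCS1B*, *RBCS2B* and *RBCS3B* had reads but passed the filter on low counts in no fit. *LHCB2.1* and *PSAG* passed it only in part of the fits and *LHCB2.2* only in the fit of all 12 libraries. Counts of some members are uncertain because of neighbours or copies. The exons of *LHCB1.5* lie wholly within those of other annotated genes, so that counting without strand could assign it no read and its 0 says nothing of its level. Other genes overlap 61.4% of the exon length of *PSAG*, 40.6% of *LHCB2.3*, 34.1% of *PSAE1*, 24.8% of *PSAH2* and 20.4% of *LHCB6*. Of all stretches of 50 bases in *LHCB2.1*, 23.5% are also present in *LHCB2.2*, so that part of their reads was not counted.

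Promoters of the members were searched for letters that are known from light regulated plant genes, over the 250 bases before and the 50 bases after each annotated start and on both strands. The G-box CACGTG, which HY5 and PIF proteins bind, was present in 14 of the 41 windows (34.1%), beside 7.7% of all 27443 promoter windows of the same length. The I-box GATAAG was present in 17 member windows (41.5%), beside 14.6% of all windows, and CCAAT was present in 31 (75.6%), beside 51.6%. CCAAT was found in 14 of 14 *LHCB* windows, GATAAG in 7 of 11 *PSA* windows and CACGTG in 6 of 8 *PSB* windows. The core CCANTGG of LFY binding sites was found in 2 member windows (4.9%), those of *LHCB4.1* and *PSBO2*, beside 3.9% of all windows. This core contains CCAAT, read on either strand, where N is A or T. These matches describe letters of the reference sequence only, and the promoters of the Landsberg *erecta* plants sampled were not sequenced.

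The 250 bases upstream of 4 of the members that passed the test at 24 h, 2 of them lower and 2 higher with dexamethasone, are printed from the RefSeq sequence of TAIR10.1, with the letters of CCAAT and GATAAG in capitals. They are *LHCB1.3* (chr1:10477635-10477884, plus strand), *RBCS1A* (chr1:25049668-25049917, minus strand), *PSAF* (chr1:11216142-11216391, minus strand) and *PSBX* (chr2:2588449-2588698, minus strand). *PSAF* and *PSBX* were added after their values were seen. The upstream bases of *LHCB1.3* and *PSBX* hold one CCAAT each, those of *PSAF* hold one CCAAT and one GATAAG, and the whole window of *RBCS1A* holds none of the motifs searched.

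LHCB1.3: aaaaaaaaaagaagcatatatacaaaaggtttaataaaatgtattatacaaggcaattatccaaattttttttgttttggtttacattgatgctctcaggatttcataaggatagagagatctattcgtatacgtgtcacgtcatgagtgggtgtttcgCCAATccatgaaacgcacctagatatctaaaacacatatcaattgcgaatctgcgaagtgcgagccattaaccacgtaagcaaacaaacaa

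RBCS1A: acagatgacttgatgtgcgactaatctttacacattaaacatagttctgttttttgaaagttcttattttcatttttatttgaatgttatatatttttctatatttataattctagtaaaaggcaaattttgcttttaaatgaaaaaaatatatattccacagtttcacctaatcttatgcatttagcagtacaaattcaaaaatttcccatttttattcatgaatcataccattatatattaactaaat

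PSAF: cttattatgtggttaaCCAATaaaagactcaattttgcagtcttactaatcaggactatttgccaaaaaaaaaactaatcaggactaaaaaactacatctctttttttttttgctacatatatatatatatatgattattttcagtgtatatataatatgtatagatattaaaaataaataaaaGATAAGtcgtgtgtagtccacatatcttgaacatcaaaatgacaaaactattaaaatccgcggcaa

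PSBX: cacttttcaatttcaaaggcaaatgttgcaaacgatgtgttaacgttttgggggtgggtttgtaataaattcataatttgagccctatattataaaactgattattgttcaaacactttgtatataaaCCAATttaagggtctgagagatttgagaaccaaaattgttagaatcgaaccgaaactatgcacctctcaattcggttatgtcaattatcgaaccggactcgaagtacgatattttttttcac

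The summed levels of the classes gave a first view of all libraries. At 1 h, the RPKM of all 8 *PSB* genes added up to 52.0 and 67.4 in the dexamethasone libraries A and B, against 49.7 and 55.3 in the mock libraries. At 6 h the sums were 78.0 and 75.2 with dexamethasone, against 81.3 and 107 with mock. At 24 h they were 104 and 92.7 with dexamethasone, against 75.0 and 68.5 with mock. The *PSB* sums thus overlapped between treatments at 1 h, were lower in both dexamethasone libraries at 6 h and were higher in both at 24 h.

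**Figure D1:**
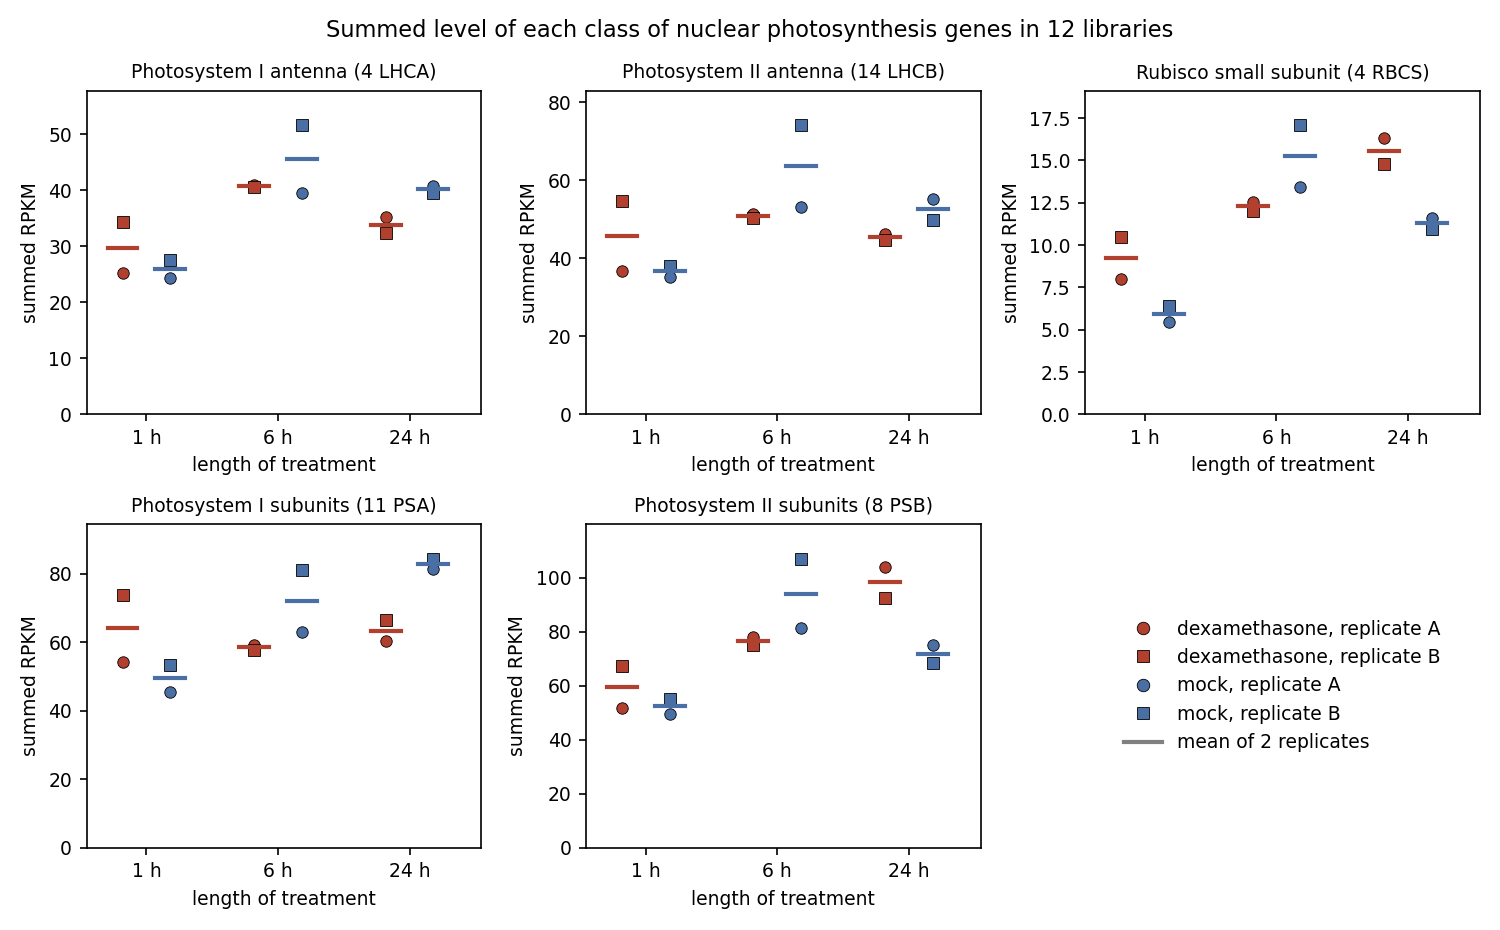
Summed RPKM of the *LHCA*, *LHCB*, *RBCS*, *PSA* and *PSB* genes in each of the 12 libraries, by length of treatment, with one point per library and a bar at the mean of 2 replicates. The *PSB* and *RBCS* sums of both dexamethasone libraries at 24 h lie above those of mock, and the *LHCA*, *LHCB* and *PSA* sums lie below.

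The other classes differed from the *PSB* class at 24 h. The *PSA* genes summed to 60.2 and 66.4 RPKM with dexamethasone, against 81.4 and 84.3 RPKM with mock, a ratio of means of 0.763. The *LHCA* genes summed to 35.2 and 32.3 RPKM with dexamethasone, against 40.8 and 39.5 RPKM with mock, a ratio of 0.840. The *LHCB* genes summed to 46.1 and 44.6 RPKM with dexamethasone, against 55.2 and 49.8 RPKM with mock, a ratio of 0.864. Both dexamethasone libraries were below both mock libraries in all 3 of these classes. The ratio was 1.37 for *PSB* and 1.38 for *RBCS*, and for all members together it was 0.991, so that the classes differed in direction while the total was nearly equal. In bulk RNA, fewer cells of a type and less RNA per cell cannot be told apart. These sums were not tested.

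The comparison of dexamethasone with mock at 24 h asks which genes differ after a day of dexamethasone treatment. A gene was called where the Benjamini-Hochberg adjusted *p* of edgeR's quasi-likelihood test, over all genes tested, was under 0.01, and fold changes are log2 values of dexamethasone over mock with their standard error (SE). Of 32 members tested, 4 were called higher (6.77% of all 19288 genes tested were called higher) and 2 were called lower (8.76% of all genes). The members' median log2 fold change was −0.15, beside 0.01 over all genes, and 12 of the 32 were positive. The dexamethasone libraries were both above the mock libraries for 8 members (29.2% of all genes) and both below for 15 (28.6% of all genes). Since nothing in the labels describes the replicates beyond their letters, the *p* values measure the spread between these libraries.

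All 3 of the *PSB* genes called at 24 h were higher with dexamethasone. *PSBR* (AT1G79040), for a subunit that associates with the oxygen evolving complex, was at 21.6 and 20.3 RPKM in the dexamethasone libraries A and B, against 13.0 and 11.9 RPKM in the mock libraries. Its log2 fold change was 0.76 (SE 0.14, adjusted *p* = 6.26e-05, edgeR), and the call was kept when any one of the 4 libraries was left out. *PSBX* (AT2G06520) was at 28.8 and 24.0 RPKM with dexamethasone, against 17.5 and 17.2 RPKM with mock, a log2 fold change of 0.61 (SE 0.13, adjusted *p* = 0.000512). Without dexamethasone library A its adjusted *p* was 0.0182. *PSBP1* (AT1G06680), for another extrinsic protein of the oxygen evolving complex, was at 13.8 and 12.9 RPKM with dexamethasone, against 10.2 and 9.44 RPKM with mock, with a log2 fold change of 0.45 (SE 0.13, adjusted *p* = 0.00848). Leaving out any one library gave *PSBP1* an adjusted *p* between 0.0147 and 0.0751, so its call rested on all 4.

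The remaining *PSB* genes did not pass the test. *PSBO1* was at 29.0 and 28.8 RPKM with dexamethasone, against 26.5 and 23.1 RPKM with mock (log2 fold change 0.22, SE 0.09, adjusted *p* = 0.0685). *PSBQ2*, for the third kind of extrinsic protein of the oxygen evolving complex, was at 1.03 and 0.811 RPKM with dexamethasone, against 1.26 and 1.37 RPKM with mock (−0.51, SE 0.43, adjusted *p* = 0.448). The *PSBO1* libraries did not overlap and lay on the same side as those of *PSBR*, whereas both *PSBQ2* levels with dexamethasone were below mock. Of all 8 *PSB* genes, 6 had a positive and 2 a negative log2 fold change, with a median of 0.41.

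*RBCS1A* (AT1G67090) was the only *RBCS* gene with enough reads for a test. It was at 16.3 and 14.8 RPKM with dexamethasone at 24 h, against 11.5 and 10.9 RPKM with mock, and its log2 fold change was 0.48 (SE 0.12, adjusted *p* = 0.00349). The call was kept without dexamethasone library B and was lost without any one of the other 3 libraries. Rubisco needs its large subunit as well, which is encoded in the chloroplast and was not analysed here.

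Among the *PSA* genes tested at 24 h, 8 of 10 had a negative log2 fold change, with a median of −0.50, and *PSAF* was called lower. *PSAF* (AT1G31330) was at 12.3 and 12.7 RPKM with dexamethasone, against 16.8 and 18.6 RPKM with mock, a log2 fold change of −0.49 (SE 0.12, adjusted *p* = 0.00204). Without mock library B its adjusted *p* was 0.0350. *PSAE2* was at 26.0 and 29.7 RPKM with dexamethasone, against 36.0 and 36.3 RPKM with mock, and missed the threshold (−0.37, SE 0.12, adjusted *p* = 0.0186). For *PSAF* and *PSAE2* both dexamethasone libraries lay below both mock libraries.

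*PSAH2*, for a subunit at the side where photosystem I takes up antenna proteins of photosystem II, had the most negative log2 fold change of the members at 24 h, but few reads. It had 6 and 6 reads with dexamethasone, against 34 and 23 reads with mock, which gave −2.05 (SE 0.62, adjusted *p* = 0.0132). *PSAH2* passed the filter on low counts only through mock, where it was high, so its negative value is not independent of the filter. Other genes overlap part of its exons, as given above. *PSAN*, for a lumenal subunit on the plastocyanin side, had the most positive value of the class, with 3.09 and 2.79 RPKM with dexamethasone, against 2.42 and 1.49 RPKM with mock (0.58, SE 0.33, adjusted *p* = 0.230). *PSAH2* and *PSAN* thus pointed in opposite directions and neither was called.

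EdgeR called 0 *LHCA* genes at 24 h, with 2 at an unadjusted *p* under 0.05 and 0 called by DESeq2, and all 4 had a negative log2 fold change, with a median of −0.29. *LHCA2* was at 3.88 and 4.06 RPKM with dexamethasone, against 6.52 and 5.60 RPKM with mock (−0.61, SE 0.19, adjusted *p* = 0.0170). *LHCA4* was at 19.7 and 17.5 RPKM with dexamethasone, against 20.7 and 20.6 RPKM with mock (−0.15, SE 0.10, adjusted *p* = 0.344). *LHCA3* was at 5.62 and 5.34 RPKM with dexamethasone, against 5.24 and 6.32 RPKM with mock (−0.07, SE 0.17, adjusted *p* = 0.826). The *LHCA3* libraries overlapped, and it turned positive, at 0.062, when mock library B was left out.

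Of 9 *LHCB* genes tested at 24 h, 6 had a negative log2 fold change, with a median of −0.20 in the class, and *LHCB1.3* was called lower. *LHCB1.3* (AT1G29930), for a major antenna protein, was at 4.22 and 4.12 RPKM with dexamethasone, against 8.55 and 5.85 RPKM with mock, a log2 fold change of −0.79 (SE 0.20, adjusted *p* = 0.00326). Mock library A stood above mock library B, and without it the change was −0.49 with an adjusted *p* of 0.221. *LHCB2.1*, for another protein of the major antenna, had 5 and 13 reads with dexamethasone, against 34 and 23 reads with mock, and was not called (−1.49, SE 0.58, adjusted *p* = 0.0611). Its place in the test rested on the mock libraries, where it was high, so its negative value is not independent of the filter on low counts.

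The genes of the minor antenna did not pass the test at 24 h. *LHCB4.1* was at 18.8 and 17.9 RPKM with dexamethasone, against 22.7 and 20.4 RPKM with mock (−0.23, SE 0.10, adjusted *p* = 0.105). *LHCB4.3* was at 2.17 and 1.96 RPKM with dexamethasone, against 1.51 and 1.61 RPKM with mock (0.41, SE 0.31, adjusted *p* = 0.401). Libraries of these genes did not overlap between treatments, but the differences were not past the threshold. *LHCB5*, for CP26, and *LHCB6*, for CP24, had log2 fold changes of 0.03 (SE 0.18) and 0.13 (SE 0.19).

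The other members tested at 24 h missed the threshold as well. Among the *PSA* genes, *PSAD2*, for a subunit at the ferredoxin docking site, had a log2 fold change of −0.82 (SE 0.29, adjusted *p* = 0.0403), while its more abundant copy *PSAD1* had −0.08 (SE 0.17). *PSAO* and *PSAL*, for subunits at the side where photosystem II antenna proteins dock, had −0.77 (SE 0.37) and −0.50 (SE 0.22), *PSAE1* had −0.55 (SE 0.52), and *PSAK*, for a subunit that contacts the antenna, had 0.05 (SE 0.36). Among the antenna genes, *LHCA1* had −0.43 (SE 0.17), *LHCB1.2* −0.50 (SE 0.38), *LHCB3* −0.20 (SE 0.21) and *LHCB4.2* −0.04 (SE 0.25). Among the *PSB* genes, *PSBW*, for a small membrane subunit, had 0.73 (SE 0.32), *PSBO2* 0.37 (SE 0.41) and *PSBQ1* −0.14 (SE 0.33). The photosystem I and antenna genes thus lay mostly below 0 and the photosystem II genes mostly above it, with the widest errors in the members with few reads.

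**Figure D2:**
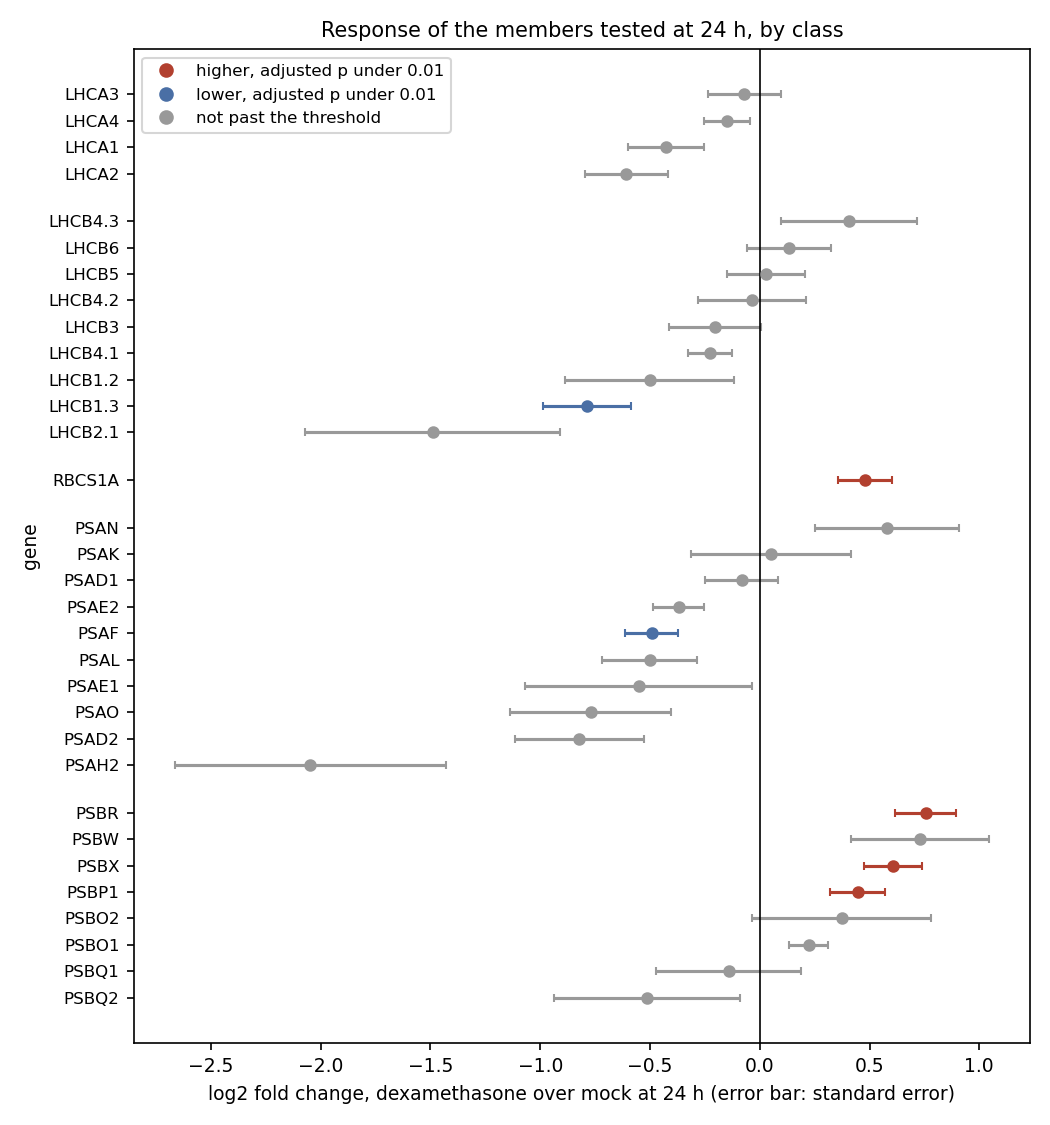
Log2 fold change of dexamethasone over mock at 24 h for the 32 members tested, grouped by class, with the standard error as a bar and a line at 0. *PSBR*, *PSBX*, *PSBP1* and *RBCS1A* are marked as higher and *LHCB1.3* and *PSAF* as lower, while the other members are grey.

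The calls at 24 h changed with the tool and with the libraries in the fit. DESeq2 called 2 members higher, *PSBR* and *PSBX*, and none lower (2054 genes in either direction), where 17 members had an unadjusted *p* under 0.05 in edgeR. A fit of all 12 libraries called none of the 6 and called only *PSAH2*, lower (adjusted *p* = 0.00977). The log2 fold changes themselves hardly moved, as *PSBR* was at 0.75 and *LHCB1.3* at −0.79 in that fit.

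**Figure D3:**
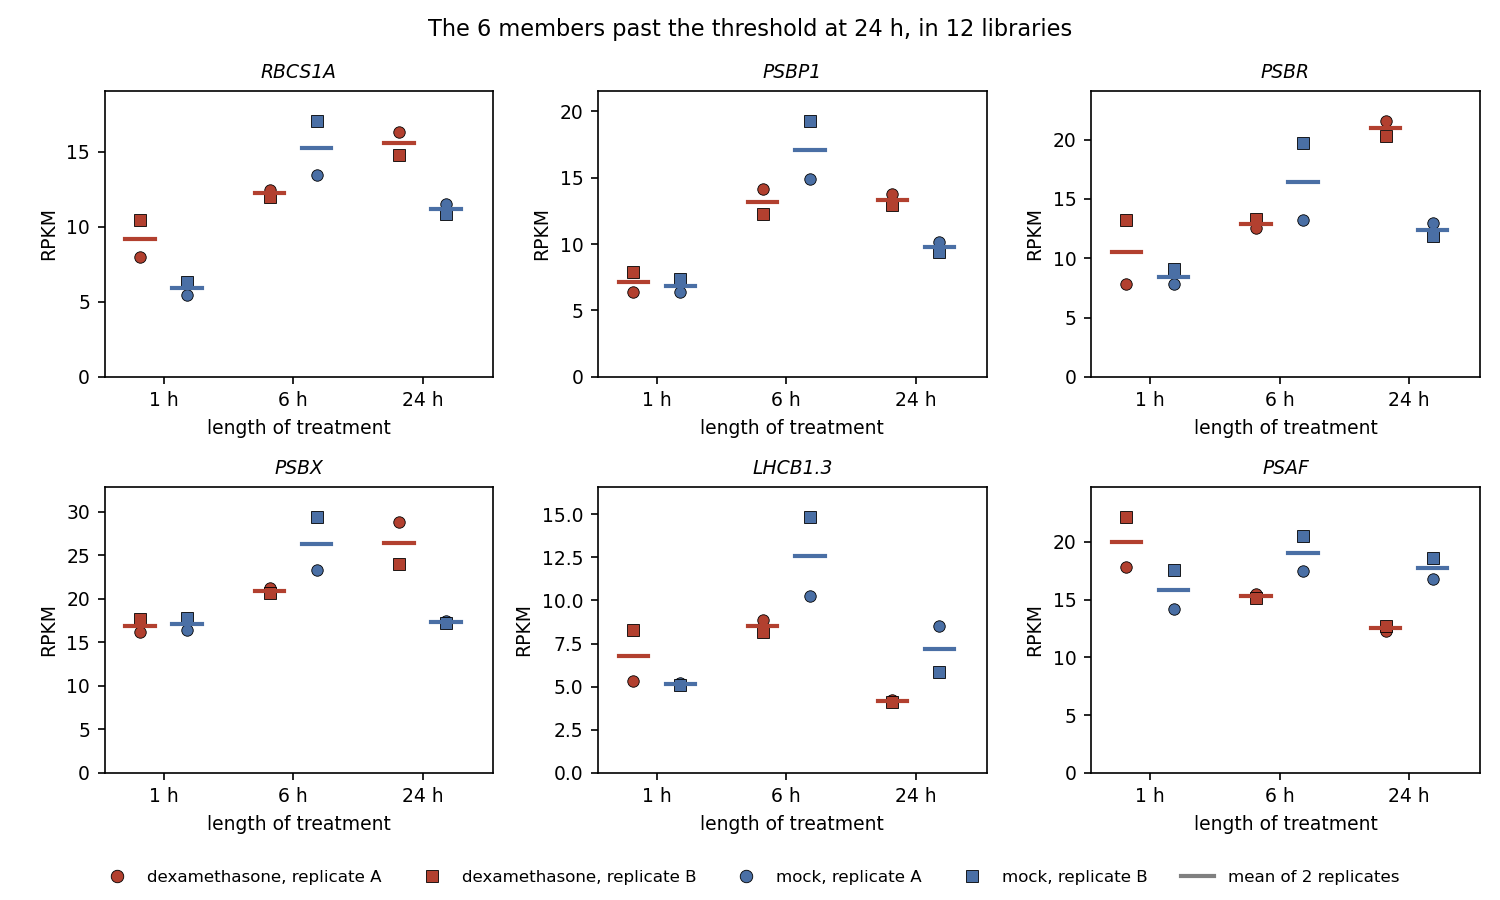
RPKM of *RBCS1A*, *PSBP1*, *PSBR*, *PSBX*, *LHCB1.3* and *PSAF* in each of the 12 libraries, by length of treatment, with one point per library and a bar at the mean of 2 replicates. At 24 h both dexamethasone libraries lie above both mock libraries for the first 4 genes and below them for the last 2, and mock library B at 6 h is above mock library A in all 6 panels.

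The earlier comparisons gave no calls. After 1 h, edgeR called 0 of 31 members tested and 0% of all 20447 genes, with 4 members at an unadjusted *p* under 0.05 and 0 members called by DESeq2. The members were mostly a little higher with dexamethasone, with 29 positive and 2 negative log2 fold changes and a median of 0.31, beside −0.01 over all genes. For 11 members both dexamethasone libraries were above both mock libraries (15.7% of all genes). *RBCS1A* was at 7.97 and 10.4 RPKM with dexamethasone, against 5.47 and 6.34 RPKM with mock (0.62, SE 0.18, adjusted *p* = 0.953).

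Dexamethasone library B at 1 h stood above the other 3 libraries of that time in the sum of every class. *LHCB4.1* was at 15.4 and 22.6 RPKM with dexamethasone, against 14.1 and 15.6 RPKM with mock, and *PSBR* at 7.81 and 13.2 RPKM with dexamethasone, against 7.84 and 9.07 RPKM with mock. Without dexamethasone library B, 0 members were called and 20 of 31 were positive with a median of 0.05. Without dexamethasone library A, 9 were called higher (4.46% of all genes in that fit) and 32 of 32 were positive with a median of 0.57. The count and the median at 1 h thus depended on which dexamethasone library was left out.

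After 6 h the members lay on the other side of mock. EdgeR called 0 of 33 members tested (0.00480% of all 20829 genes were called, a single gene), with 10 members at an unadjusted *p* under 0.05 and 0 called by DESeq2. The log2 fold change was negative for 29 and positive for 4 members, with a median of −0.24 beside 0.00 over all genes, and for 16 members both dexamethasone libraries were below both mock libraries (23.8% of all genes). *LHCB1.3* was at 8.87 and 8.19 RPKM with dexamethasone, against 10.3 and 14.8 RPKM with mock (−0.56, SE 0.18, adjusted *p* = 0.349). *PSBX* was at 21.2 and 20.7 RPKM with dexamethasone, against 23.3 and 29.4 RPKM with mock (−0.33, SE 0.12, adjusted *p* = 0.396).

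At 6 h it was mock library B that stood apart, with the highest sum of every class among the 4 libraries. Without mock library A, 21 members were called lower with dexamethasone (19.7% of all genes in that fit). Without mock library B, 1 was called lower (5.80% of all genes in that fit), and the median was −0.07 with 11 members positive. *PSAE2* shows the spread within the group, at 19.7 and 19.3 RPKM with dexamethasone, against 19.1 and 28.9 RPKM with mock.

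**Figure D4:**
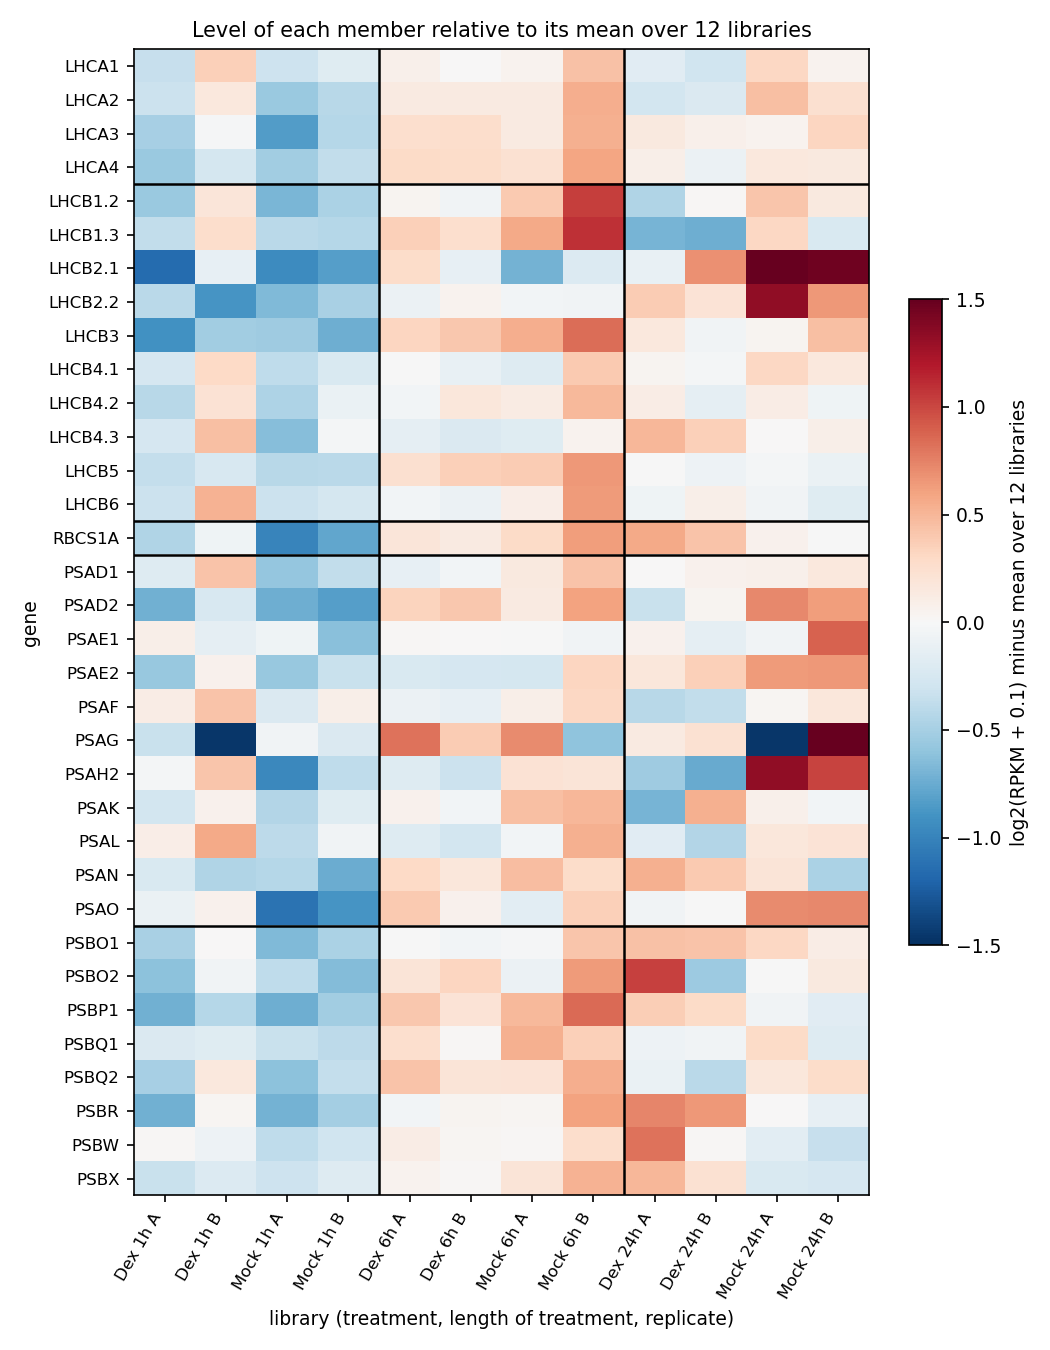
Level of the 34 members tested in the fit of all 12 libraries, in each library, as log2(RPKM + 0.1) minus the gene's mean over the 12 libraries, with genes in rows by class, libraries (Dex, dexamethasone) in columns and values beyond the colour scale at its end colours. The mock columns at 1 h are low for most genes, dexamethasone library B at 1 h and mock library B at 6 h stand above their partners for most genes, and the 24 h columns differ by class.

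The groups also differed by length of treatment. Over the 34 members tested in the fit of all 12 libraries, the group with the lowest mean was mock at 1 h for 27 members, dexamethasone at 1 h for 4 and dexamethasone at 24 h for 3. The group with the highest mean was mock at 6 h for 15 members, mock at 24 h for 9, dexamethasone at 24 h for 8 and dexamethasone at 1 h for 2. Since all explants spent the same time on CIM, these groups differ in when the treatment began. Comparisons between times use the same libraries as those between treatments, so a library that stands apart enters both.

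In mock treated explants, 13 of the 34 members were called higher at 6 h than at 1 h (5.34% of all 21241 genes) and 0 were called lower (9.26% of all genes). There, 0 members with a negative value had an unadjusted *p* under 0.05, and DESeq2 called 17 higher and 0 lower (4265 genes in either direction). All 34 had a positive log2 fold change, with a median of 0.87 beside −0.01 over all genes, and for 31 both 6 h libraries were above both 1 h libraries (28.9% of all genes). *RBCS1A* was at 13.4 and 17.0 RPKM in mock libraries at 6 h, against 5.47 and 6.34 RPKM in mock libraries at 1 h, a log2 fold change of 1.37 (SE 0.15, adjusted *p* = 0.000105). *PSBP1* was at 14.9 and 19.3 RPKM at 6 h, against 6.35 and 7.36 RPKM at 1 h (1.32, SE 0.15, adjusted *p* = 0.000114). The increase covered every class, with 3 of 4 *LHCA* genes, 4 of 10 *LHCB* genes, *RBCS1A*, 2 of 11 *PSA* genes and 3 of 8 *PSB* genes called.

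The antenna genes that were higher at 6 h than at 1 h in mock were *LHCA2*, *LHCA3*, *LHCA4*, *LHCB1.2*, *LHCB1.3*, *LHCB3* and *LHCB5*. *LHCB3* was at 6.43 and 7.88 RPKM at 6 h, against 3.00 and 2.61 RPKM at 1 h (1.35, SE 0.19, adjusted *p* = 0.000471). *LHCB5* was at 7.59 and 9.19 RPKM at 6 h, against 4.35 and 4.38 RPKM at 1 h (0.94, SE 0.12, adjusted *p* = 0.00031). The photosystem genes were *PSAD2*, *PSAO*, *PSBO1*, *PSBP1* and *PSBX*. Leaving out one library gave between 4 and 14 calls (1.61% to 3.92% of all genes were called higher in those fits), with 4 without mock library A at 1 h, 6 without mock library B at 1 h, 14 without mock library A at 6 h and 5 without mock library B at 6 h, and *LHCB3*, *LHCB5*, *PSBP1* and *RBCS1A* were called in all of these. A fit of the 4 libraries alone called 6, and its count over all genes is not given here.

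Genes of the circadian clock, which peak at set hours of the day, moved in the same comparison. Of 10 clock genes, chosen after values had been seen, 5 were higher in mock at 6 h than at 1 h (5.34% of all genes) and none was lower (9.26% of all genes). *CCA1*, a clock gene of the morning, was at 8.76 and 9.13 CPM in mock at 6 h, against 3.45 and 3.35 CPM in mock at 1 h (1.40, SE 0.16, adjusted *p* = 0.000146), and *PRR9*, *LHY*, *PRR5* and *ELF3* also passed the test. *LUX*, an evening gene, had a negative value and was not called (−0.30, SE 0.09, adjusted *p* = 0.0257). All groups share one stated hour of harvest, and the part of the clock genes in the difference between 1 and 6 h was not tested.

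With dexamethasone, 4 members were called higher at 6 h than at 1 h (7.08% of all genes) and 0 lower (12.1% of all genes), where 2 members with a negative value had an unadjusted *p* under 0.05 and DESeq2 called 0 lower. The median was 0.28, and for 17 members both 6 h libraries were above both 1 h libraries (34.5% of all genes). The 4 genes were *LHCA4* (0.69, SE 0.13), *LHCB3* (1.10, SE 0.19), *LHCB5* (0.61, SE 0.12) and *PSBP1* (0.89, SE 0.15), all of which were also called in mock. *LHCB3* was at 5.49 and 5.83 RPKM at 6 h, against 2.29 and 3.01 RPKM at 1 h. The count was lower without either dexamethasone library at 6 h, where fewer of all genes were called higher too. It was 0 in a fit of the 4 libraries alone, whose count over all genes is not given here.

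Between 24 and 6 h, mock treated explants had 1 member higher (6.79% of all genes) and 3 lower (8.49% of all genes). *LHCB2.1* was the one that rose, at 0.945 and 0.750 RPKM in mock at 24 h, against 0.0897 and 0.168 RPKM in mock at 6 h (2.69, SE 0.59, adjusted *p* = 0.00687). *LHCB5* (−0.59, SE 0.13), *PSBP1* (−0.80, SE 0.15) and *PSBX* (−0.60, SE 0.13) fell. All 4 calls were lost without mock library B at 6 h, without mock library A at 24 h or without mock library B at 24 h. That of *LHCB2.1* was also lost without mock library A at 6 h. Its reads were few, 34 and 23 in mock at 24 h against 7 and 15 in mock at 6 h. A fit of the 4 libraries alone called 2, and its count over all genes is not given here.

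With dexamethasone, edgeR called 0 members between 24 and 6 h (17.7% of all genes), with 7 members at an unadjusted *p* under 0.05. DESeq2 called 1 lower (5010 genes in either direction). *LHCB1.3*, at 4.22 and 4.12 RPKM at 24 h against 8.87 and 8.19 RPKM at 6 h, was just outside the threshold (−1.03, SE 0.25, adjusted *p* = 0.0105). *PSBR*, at 21.6 and 20.3 RPKM at 24 h against 12.6 and 13.3 RPKM at 6 h, had a log2 fold change of 0.70 (SE 0.23, adjusted *p* = 0.0434). A fit of the 4 libraries alone called 4 members higher and 2 lower, and its count over all genes is not given here.

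Whether the response to dexamethasone itself differed between times was tested as an interaction over all 12 libraries. Between 24 and 6 h, *PSBX* was the only member called with a higher response at 24 h (1.43% of all genes), and 0 were called with a lower one (3.00% of all genes), with 4 negative members at an unadjusted *p* under 0.05 and 0 called by DESeq2. For *PSBX* the difference in log2 fold change was 0.93 (SE 0.19, adjusted *p* = 0.00931), made up of −0.33 at 6 h and 0.61 at 24 h in the fits of each time. The call was kept without mock library A at 6 h and lost when any other library of both times was left out. *PSBR* had a difference of 1.10 (SE 0.33, adjusted *p* = 0.0675) and *RBCS1A* one of 0.79 (SE 0.22, adjusted *p* = 0.0434), which did not pass.

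Between 6 and 1 h, edgeR called 0 members with a different response (0.0612% of all genes), with 11 members at an unadjusted *p* under 0.05 and 0 called by DESeq2. The difference was negative for 31 and positive for 3 of 34 members, with a median of −0.50. This value takes in both libraries that stood apart, dexamethasone library B at 1 h and mock library B at 6 h.

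Other genes of the photosynthetic pathway were taken as lists, which were described by their counts and not tested as sets. In chlorophyll synthesis, 5 of 15 genes tested were higher with dexamethasone at 24 h (6.77% of all genes) and none was lower (8.76% of all genes), with a median of 0.32 and 5 negative values. *CHLH*, for a subunit of the magnesium chelatase that starts the chlorophyll branch, was at 43.6 and 42.0 CPM with dexamethasone, against 18.4 and 18.2 CPM with mock (1.23, SE 0.10, adjusted *p* = 1.94e-12). *CHLG*, for chlorophyll synthase, was at 22.0 and 22.3 CPM with dexamethasone, against 11.9 and 9.72 CPM with mock (1.04, SE 0.13, adjusted *p* = 6.44e-08). *CHLP*, for the geranylgeranyl reductase that makes the chlorophyll side chain, was higher as well (0.79, SE 0.06, adjusted *p* = 4.54e-12). *PORC*, for a protochlorophyllide reductase, was at 2.89 and 2.58 CPM with dexamethasone, against 4.26 and 3.99 CPM with mock, and was not called (−0.59, SE 0.27, adjusted *p* = 0.119). Compared with 6 h, the response at 24 h was larger for *CHLH* (a difference of 1.50, SE 0.16), *CHLG* (1.33, SE 0.19) and *CHLP* (0.96, SE 0.13), all past the threshold of the interaction test.

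In electron transport and ATP synthase, 2 of 9 genes were higher at 24 h (6.77% of all genes) and none was lower (8.76% of all genes). *FD1*, for a leaf type ferredoxin, was at 49.2 and 47.6 CPM with dexamethasone, against 25.9 and 22.4 CPM with mock (1.01, SE 0.09), and its response was larger at 24 h than at 6 h by 1.46 (SE 0.25). *PETC*, for the Rieske protein of the cytochrome b6f complex, was at 5.51 and 5.63 CPM with dexamethasone, against 2.46 and 3.07 CPM with mock (1.02, SE 0.25). *FD3*, for the ferredoxin of root plastids, was lower, at 175 and 173 CPM with dexamethasone, against 218 and 212 CPM with mock (−0.30, SE 0.06). *FD2*, the other leaf type ferredoxin gene, was at 37.3 and 36.1 CPM with dexamethasone, against 33.4 and 32.0 CPM with mock, and was not called (0.17, SE 0.09, adjusted *p* = 0.200). *FD1* and *FD3* thus moved in opposite directions. *RFNR1* and *RFNR2*, for ferredoxin reductases of root plastids, were not called and their libraries overlapped between treatments. *RFNR1* was at 91.5 and 83.6 CPM with dexamethasone, against 90.1 and 85.4 CPM with mock. *RFNR2* was at 141 and 150 CPM with dexamethasone, against 161 and 147 CPM with mock.

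Of 8 further photosystem genes tested at 24 h, 1 was higher (6.77% of all genes) and none was lower (8.76% of all genes). The higher one was *PSB28*, for an assembly factor of photosystem II (0.83, SE 0.19). EdgeR called 0 of 12 Calvin cycle genes at 24 h, with 2 at an unadjusted *p* under 0.05, 0 called by DESeq2 and a median of 0.29, and *GAPB*, for a subunit of the chloroplast glyceraldehyde phosphate dehydrogenase, had 0.87 (SE 0.31, adjusted *p* = 0.0380).

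Known regulators of these genes differed in level. *GNC* was at 0 and *GLK1*, an activator of photosynthesis genes, was at 0.06 CPM or less in all libraries. *HY5*, which promotes light responses, was at 29.9 and 32.8 CPM with dexamethasone at 24 h, against 13.6 and 12.5 CPM with mock (1.27, SE 0.11), and its response was larger than at 6 h by 1.47 (SE 0.17). *PIF1*, which represses chlorophyll synthesis in the dark, was at 2.41 and 1.80 CPM with dexamethasone, against 6.96 and 5.96 CPM with mock (−1.62, SE 0.26). *HY5* was thus higher and *PIF1* lower in both dexamethasone libraries.

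Markers of the tissue moved at 24 h too. Of 9 root and callus markers tested, 1 was higher (6.77% of all genes) and 3 were lower (8.76% of all genes). Among the lower ones was *LBD29*, a callus regulator, at 14.2 and 15.8 CPM with dexamethasone, against 50.9 and 58.3 CPM with mock. The 12 root and callus markers summed to 354 and 347 RPKM with dexamethasone, against 474 and 465 RPKM with mock. Besides *LBD29*, *LBD16* was lower, at 115 and 123 RPKM with dexamethasone, against 184 and 172 RPKM with mock. *WOX5* was lower as well, at 61.4 and 62.3 RPKM, against 87.0 and 92.6 RPKM. *PLT1* went the other way, at 54.2 and 51.6 RPKM, against 45.1 and 41.9 RPKM. Libraries of *SCR*, *SHR* and *PLT2* overlapped between treatments, so the markers did not fall as a whole. The 12 shoot markers, of which *CER6* made up most, summed to 111 and 93.0 RPKM with dexamethasone, against 62.1 and 61.1 RPKM with mock, while *FAMA*, *TGG1* and *TGG2* were at 0 in both. *CER6* was at 290 and 241 CPM with dexamethasone, against 155 and 152 CPM with mock, and *MYB60* was at 0.525 and 0.773 CPM with dexamethasone, against 3.75 and 3.67 CPM with mock. The part of these markers in the differences of the photosynthesis genes was not tested.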

How the data were processed

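RNA of the 12 libraries was selected by poly(A) and sequenced as single-end reads. The authors trimmed reads with Trimmomatic (0.36 per the labels, another version in the methods), checked them with FastQC 0.11.5, mapped them with STAR to TAIR10 and counted reads per Araport11 gene with HTSeq 0.7.2 without using the strand. The deposited values are raw counts per gene and library, with no normalization. HTSeq's tallies of unassigned reads were left out, with multiply mapped reads at 6.90% to 22.2% of the reads per library, reads on no gene at 1.04% to 2.83% and ambiguous reads at 2.01% to 2.51%.

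Groups were taken from the sample titles. Genes were filtered with edgeR's filterByExpr, scaled by TMM and tested with glmQLFit and glmQLFTest (edgeR 4.0.16, limma 3.58.1, R 4.3.3), with Benjamini-Hochberg adjustment over all genes tested and a threshold of 0.01. Dexamethasone and mock were compared within the 4 libraries of each time, as in the pairwise comparisons of the study, and times and interactions in a fit of all 12 libraries without a replicate term. Comparisons with the same libraries share their error. Standard errors were derived from the test statistic. DESeq2 1.42.0, RLE scaling, TMM without the members, other filters, an adjusted p under 0.05, a replicate block, other sets of libraries in the fit and leaving out each library were the alternatives. The test was checked on simulated data with 200 changed genes. RPKM used the exon union of the TAIR10.1 annotation of RefSeq, whose nuclear chromosomes are those of TAIR10, and promoter sequence came from the same source. Tables were joined in Python 3.11.15 with pandas 2.3.3 and numpy 2.4.6, and drawn with matplotlib 3.10.9.

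The members, the other lists and the clock genes were chosen with earlier results of these data known. Values per library are given for the member with the highest mean RPKM and for those with the largest and smallest log2 fold change at 24 h in each class, and for members called in an interaction test. *PSBP1* and, at other times than 24 h, *LHCB3*, *LHCB5* and members named for the spread within a group were added after their values were seen, as were *LHCB1.3* and *PSAF*, which passed the test at 24 h. Counting limits cover counting error only. Depth was 18511462 to 66789371 counts per library and lowest at 24 h. Fold changes, *p* values and lists of genes published with the study were not used here.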

Additional observations from a re-analysis of the deposited data

Results flagged for a closer look

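The response of *PSBX*, for a small membrane subunit of photosystem II, passed the threshold of the interaction test between 24 and 6 h. Its log2 fold change of dexamethasone over mock was larger at 24 h than at 6 h by 0.93 (SE 0.19, adjusted p = 0.00931 in edgeR's interaction test over all 12 libraries). *PSBX* was at 28.8 and 24.0 RPKM with dexamethasone at 24 h, against 17.5 and 17.2 RPKM with mock at 24 h, and at 21.2 and 20.7 RPKM with dexamethasone at 6 h, against 23.3 and 29.4 RPKM with mock at 6 h. Both dexamethasone libraries were above both mock libraries at 24 h and below them at 6 h. With the replicate letter in the fit its adjusted p was 0.0101, outside the threshold of 0.01. As given above, the call was lost in most fits that left out a library. Mock library B at 6 h had the highest sum of every class among the libraries of that time.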

How the results depend on the processing

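RLE scaling and TMM without the members left every count of called members as it was. At 24 h, DESeq2 called 2 members (2054 genes in all), an adjusted p under 0.05 gave 10 and the fit of all 12 libraries 1. Fits of only the libraries compared called 6 for 6 against 1 h in mock, 2 for 24 against 6 h in mock, 0 for 6 against 1 h with dexamethasone and 6 for 24 against 6 h with dexamethasone. For 24 against 6 h with dexamethasone, where 0 were called, DESeq2 called 1 (5010 genes in all). No filter called 3, at least 10 counts in each library 1 and an adjusted p under 0.05 gave 2. For the response at 24 against 6 h, DESeq2 called 2 (1654 genes in all), no filter 4 and an adjusted p under 0.05 gave 3. For the response at 6 against 1 h no filter gave 1. Leaving out one library gave 0 to 9 calls at 1 h, 0 to 21 at 6 h and 3 to 5 at 24 h, 4 to 14 for 6 against 1 h in mock, 0 to 3 for 24 against 6 h in mock, 0 to 4 for 6 against 1 h with dexamethasone and 0 to 1 for the response at 24 against 6 h. When a library was left out, *LHCA3* at 24 h ranged from −0.21 to 0.062, the one sign that turned. The cause of these differences was not tested.

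The letters A and B were not taken as pairs, since no label says what they share. Over genes, the A minus B differences of dexamethasone and mock correlated at 0.62 at 1 h, −0.08 at 6 h and 0.05 at 24 h. Those of mock at 6 h correlated at 0.66 with mock at 1 h and at 0.80 with dexamethasone at 1 h. With the replicate block, 1 member was called at 1 h (413 genes in all), 0 at 6 h, 6 at 24 h, 17 for 6 against 1 h in mock and 0 for the response at 24 against 6 h. Counts of all genes in the other fits with the block are not given here. For 24 against 6 h in mock the differences correlated at −0.19, and crossed pairs, chosen after seeing the data, gave 5 calls. Members with few reads, such as *LHCB2.1* and *PSAH2*, have wide errors, and a lone library in a fit is assumed to vary like the others.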

Other observations

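Clock genes, chosen after values had been seen, also differed between treatments at 24 h. With dexamethasone, 6 of 10 were higher (6.77% of all genes) and 1 was lower (8.76% of all genes). *ELF4*, an evening gene of the clock, was at 34.0 and 31.7 CPM with dexamethasone at 24 h, against 8.56 and 7.20 CPM with mock (log2 fold change 2.06, SE 0.12). *TOC1*, another evening gene, was at 175 and 174 CPM with dexamethasone, against 120 and 120 CPM with mock (0.55, SE 0.06). *CCA1*, a morning gene, was at 6.35 and 6.87 CPM with dexamethasone, against 9.46 and 13.6 CPM with mock (−0.79, SE 0.18). *LUX*, *PRR5*, *ELF3* and *GI* were higher with dexamethasone, and *LHY*, *PRR7* and *PRR9* were not called.

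Between 6 and 1 h, root type plastid redox genes stood opposite to the photosynthesis genes in mock. With dexamethasone all 3 of them were negative as well, with 2 called lower (12.1% of all genes) and a median log2 fold change of −0.35. *FD3*, *RFNR1* and *RFNR2*, for ferredoxin and ferredoxin reductases of root plastids, were all lower in mock at 6 h than at 1 h, with log2 fold changes of −0.45 (SE 0.07), −0.59 (SE 0.08) and −0.46 (SE 0.09). In the same comparison 5 of 16 chlorophyll synthesis genes and 2 of 12 Calvin cycle genes were higher (5.34% of all genes). So were 3 of 10 genes of electron transport and ATP synthase and 2 of 8 further photosystem genes. None of these lists held a gene that was lower (9.26% of all genes). *GLK2*, an activator of photosynthesis genes, was at 1.28 and 1.61 CPM in mock at 6 h, against 0.535 and 0.568 CPM in mock at 1 h (1.38, SE 0.30).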
